A study of Mus musculus with 2 samples.

Results

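Dbp, Tef, Hlf and Nfil3 are transcription factors through which the circadian clock reaches some of its output genes. They were followed here as 4 of the 19073 features measured in hepatocytes from fibrotic mouse liver. They were chosen by gene family after the higher Dbp level (CPM) of Tom+ over Tom- hepatocytes and the place of Dbp among cluster-leading genes had been seen, so those differences are given as descriptions. Dbp, Tef and Hlf belong to the PAR bZIP family, which binds D-box sequences and activates genes of drug, haem and lipid metabolism in liver. Nfil3, also called E4BP4, binds the same sequences and represses. The activators CLOCK and BMAL1 drive Dbp and the Per and Nr1d genes through E-box sequences, and ROR and REV-ERB proteins act on Nfil3. In liver Dbp transcripts are known to swing far more over the day than Tef or Hlf transcripts, and Nfil3 is known to peak at another time of day than Dbp.

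The libraries came from livers of heterozygous male p16-Tom mice on a C57BL/6 background, which carry p16-CreERT2 and the R26-CAG-LSL-tdTomato-WPRE reporter. All mice had been given CCl4, which injures pericentral hepatocytes and over weeks leads to fibrosis, for 4 weeks together with tamoxifen, which lets the recombinase mark cells that then transcribe p16Ink4a. Tissue was fixed before dissociation, and cells positive for Hoechst and MitoBrilliant 646 were sorted into a Tom- (p16low) and a Tom+ (p16high) fraction, each measured as 1 library with the probe-based 10x Genomics Flex assay. The mice were kept under a daily cycle of light and dark, but the hour at which livers were taken, the age of the mice and their number per library are not given in the sources used here, and cells carry no animal label, so time of day, animal and reporter state cannot be told apart. There was 1 library per group and therefore no test and no p-value. Every interval is at 95% and covers counting error only, because cells of a library are not replicates.

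The Tom- library held 681279005 UMIs in 23220 barcodes and the Tom+ library 715333889 UMIs in 16339 barcodes. Filters and the removal of clusters with few genes or with markers of other cells left 11038 Tom- hepatocytes (median 32639.5 UMIs) and 10479 Tom+ hepatocytes (median 35496 UMIs). The removal took 45.2% of the filtered Tom- cells and 21.7% of the filtered Tom+ cells. Hepatocyte markers (8 of 8 measured) summed to 168410 CPM (a gene's UMIs over all UMIs of the cells, on the scale of counts per 1e6 UMIs) in Tom- and 162427 CPM in Tom+ hepatocytes. The summed markers of sinusoidal endothelial cells were at 65.4 and 52.9 CPM, and those of macrophages at 214 and 189 CPM. Stellate cell and fibroblast markers went the other way, with 65.7 CPM in Tom- and 75.5 CPM in Tom+ hepatocytes. The libraries shared 503 barcode sequences, carried by 239 Tom- and 332 Tom+ hepatocytes. The reporter tdTomato was at 72.2 CPM in Tom- and 805 CPM in Tom+ hepatocytes.

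In mm10 the members lie on separate chromosomes. Dbp (ENSMUSG00000059824) lies at chr7:45705088-45710203 on the plus strand and Tef (ENSMUSG00000022389) at chr15:81802421-81826863 on the plus strand. Hlf (ENSMUSG00000003949) lies at chr11:90336536-90390895 and Nfil3 (ENSMUSG00000056749) at chr13:52967209-52981073, both on the minus strand. Promoter windows of RefSeq (GRCm38.p6), from 250 bases before to 50 bases after each start, were searched on both strands for 3 kinds of letters: the E-box CACGTG, the D-boxes TTACGTAA and TTATGTAA, and AGGTCA, the core bound by ROR and REV-ERB proteins. In that order the motifs were held by 7.15%, 0.119%, 0.938% and 16.3% of all 32851 windows, and by at least 1 window of 8.09%, 0.126%, 1.11% and 18.1% of the 27025 genes. The E-box letters were found in the windows of 1 of 4 members, Tef, at both of its starts, and the AGGTCA letters in 1 of 4, Nfil3. No D-box letters were found in the members' windows. Per3, the clock repressor whose UMIs went most closely with those of Dbp in Tom+ hepatocytes, had TTATGTAA at 2 places, and it was the only one of 8 clock repressors with a window here that held D-box letters. Among the repressors the E-box letters were found for 4 of 8 genes (Bhlhe41, Ciart, Cry1 and Per1) and AGGTCA for 2 of 8 (Nr1d2 and Per1). The lines below show the matches of the members and of Per3, which were picked with the values below known. Each line runs 5′ to 3′ on the gene's strand with the motif in capitals, and the Nfil3 match is the reverse complement of AGGTCA.
Tef, 127 bases before the upstream start, chr15:81802534-81802563: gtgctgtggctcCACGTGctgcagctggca
Tef, 138 bases before the downstream start, chr15:81811264-81811293: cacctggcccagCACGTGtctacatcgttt
Nfil3, 12 bases before the start, chr13:52981034-52981063: ggcgctcggaacTGACCTactaacacacat
Per3, 205 bases before the start, chr4:151044852-151044881: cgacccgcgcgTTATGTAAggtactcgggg
Per3, 158 bases before the start, chr4:151044805-151044834: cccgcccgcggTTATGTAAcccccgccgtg
A match of letters is a description of the sequence, and no binding was measured here.

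Among the 4 members Dbp differed most between the libraries. Summed over hepatocytes, it had 3508 UMIs in Tom-, a level of 8.76 CPM (8.47 to 9.06), and 9369 UMIs in Tom+, a level of 22.4 CPM (21.95 to 22.9). This was a log2 ratio of 1.35 (1.298 to 1.411), at percentile 99.9 of the 7842 genes at 10 CPM or more in either library. Dbp is in that set only through its Tom+ level, since its Tom- level was below 10 CPM. Tef was at 68.0 CPM (67.2 to 68.8) in Tom- and 84.0 CPM (83.1 to 84.9) in Tom+ hepatocytes, a log2 ratio of 0.31 (0.28 to 0.33) at percentile 92.0. Both genes were higher in Tom+. Hlf was at 122 CPM (120.5 to 122.7) in Tom- and 132 CPM (131 to 133) in Tom+, a log2 ratio of 0.12 (0.10 to 0.14) at percentile 70.4. Nfil3 went the other way, with 100.2 CPM (99.2 to 101) in Tom- and 94.5 CPM (93.6 to 95.5) in Tom+, a log2 ratio of -0.08 (-0.10 to -0.06) at percentile 19.9. The median log2 ratio over all genes tested was 0.03. Dbp was the 1 member past 2-fold, against a background of 21 genes (0.268%) at least 2-fold higher and 2 genes (0.0255%) at least 2-fold lower in Tom+. Because Dbp joined the tested genes through Tom+ alone, its place past 2-fold is a description. Probes of different genes capture with different efficiency, so CPM values are compared between cells and not between genes.

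Most of the Dbp difference lay in a minority of Tom+ hepatocytes. Among 10 hepatocyte clusters, clusters 6 and 9 consisted of at least 90% Tom+ cells and held 2060 Tom+ hepatocytes (19.7%) and 71 Tom- hepatocytes (0.643%). With both clusters left out of both libraries, Dbp was at 8.46 CPM in Tom- and 12.1 CPM in Tom+, a log2 ratio of 0.51 (0.45 to 0.58). Tef levels were then 67.6 CPM for Tom- and 73.7 CPM for Tom+, and the log2 ratio 0.12 (0.10 to 0.15). Hlf kept a log2 ratio of 0.10 (0.08 to 0.12). Nfil3 was at 100.3 CPM in Tom- and 100.1 CPM in Tom+, and the interval of its log2 ratio, -0.02 to 0.02, held 0. Since Dbp is among the genes that define these clusters, leaving them out is partly a choice by Dbp itself.

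Dbp UMIs were found in few cells at the depths used here. A gene at a low level gives a small share whether or not it is confined to few cells, so the share alone does not show restriction. With each cell thinned to 10000 UMIs, a Dbp UMI was present in 8.15% (7.64 to 8.69) of the 10682 Tom- cells and in 14.1% (13.4 to 14.8) of the 10027 Tom+ cells, and 356 and 452 shallower cells were left out. Unthinned, the shares were 21.7% and 32.2%. The thinned shares of Tef were 50.4% in Tom- and 55.5% in Tom+, those of Hlf 69.7% and 72.8%, and those of Nfil3 63.0% and 59.6%. The shares took the same order between libraries as the CPM values for each member. The highest Dbp count in a single cell was 12 UMIs in Tom- and 43 UMIs in Tom+. These genes are active in many tissues, so no cell class here should lack them, and the share that free RNA gives could not be read from such a class.

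Variation between cells, beyond what counting gives, also set Dbp apart. Its squared coefficient of variation after subtraction of counting noise was 3.89 in Tom- hepatocytes, rank 30 of the 8778 genes at 5 CPM or more, and 5.08 in Tom+ hepatocytes, rank 22. Without clusters 6 and 9 it was 2.90 (rank 54) and 4.86 (rank 26). The median gene had 0.123 and 0.117. Tef, at 0.258 and 0.336, was above the median gene in both libraries. Nfil3, at 0.116 and 0.128, lay close to it, and Hlf, at 0.0450 and 0.0531, was among the steadier genes. A gene that is on in all hepatocytes at a similar level gives a low value, and a gene at a high level in a minority gives a high one.

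Position along the lobule was taken from 8 pericentral and 8 periportal markers that include no clock gene, with 10 bins and 3 parts of equal cell number cut over the hepatocytes of both libraries. From the periportal to the pericentral bin, Cyp2e1 went from 174 to 4124 CPM in Tom- hepatocytes, as its use in the score sets. The parts held 5027, 3941 and 2070 Tom- cells and 2145, 3231 and 5103 Tom+ cells from periportal to pericentral. In Tom- hepatocytes Dbp was at 11.4 CPM in the periportal part, 6.93 CPM in the middle part and 5.94 CPM in the pericentral part. The pericentral over periportal log2 ratio was -0.94 (-1.09 to -0.78). By bins, Tom- Dbp was highest in the outermost periportal bin, at 12.7 CPM, and lowest in bin 8, at 5.25 CPM. In Tom+ hepatocytes Dbp was at 22.4, 17.3 and 25.8 CPM in the same parts, a log2 ratio of 0.20 (0.13 to 0.28). Both ends of the Tom+ lobule were therefore above its middle, with 28.3 CPM in bin 1, 15.4 CPM in bin 5 and 29.0 CPM in bin 9. The Tom+ value was 0.04 (-0.11 to 0.20) with cells thinned to 10000 UMIs and -0.04 between the outermost bins, so it had no steady sign. Whether the gradients differ between the conditions could not be tested with 1 library each.

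The high pericentral Dbp of Tom+ hepatocytes was found in clusters 6 and 9, at 72.2 CPM over their 1153 pericentral cells. Without these clusters the Tom+ parts were at 13.4, 12.2 and 11.4 CPM, and the log2 ratio was -0.23 (-0.34 to -0.11), which has the direction seen in Tom- hepatocytes. Within each of the 10 bins Dbp was higher in Tom+ than in Tom-, by a log2 ratio of 0.99 to 2.23 with all cells and of 0.30 to 1.21 without the clusters, and each interval lay above 0. The higher Tom+ level was thus seen at matched lobule positions.

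**Figure D1:**
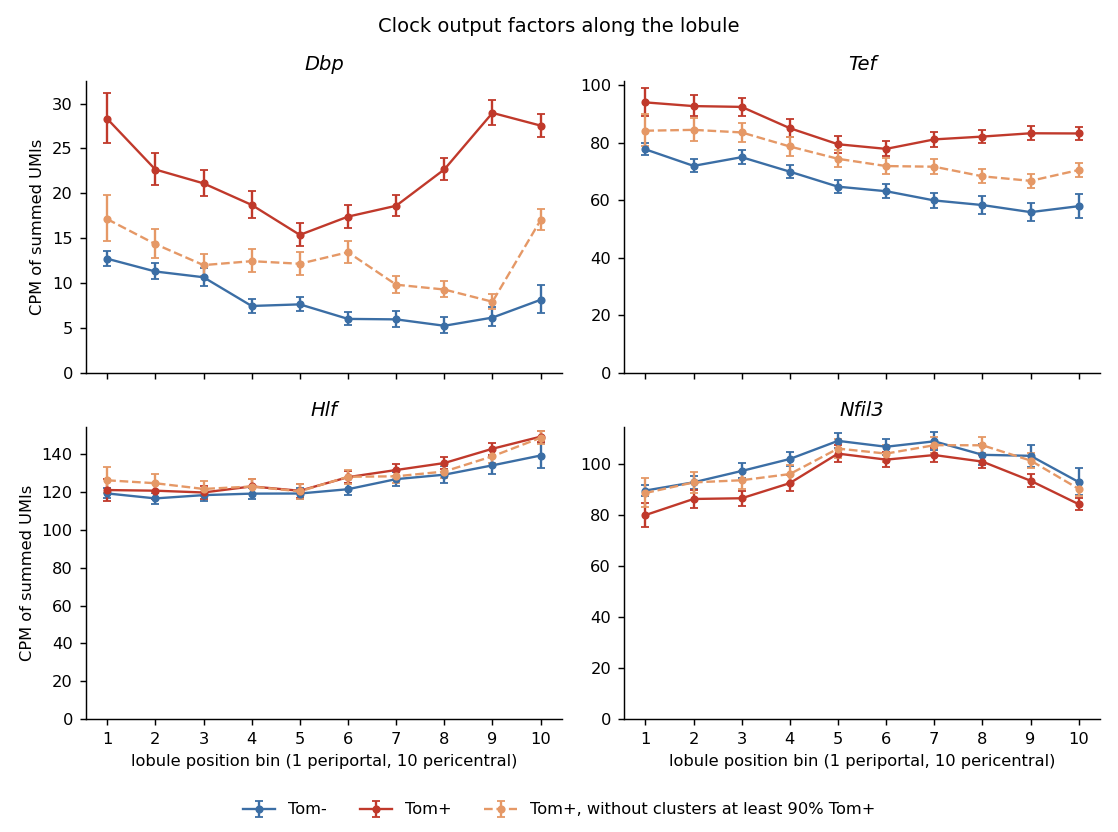
CPM of summed UMIs (vertical axes, from 0) of each member in 10 bins of lobule position (horizontal axis, 1 periportal to 10 pericentral), with 95% counting intervals as bars, for Tom- hepatocytes, Tom+ hepatocytes and Tom+ hepatocytes without the clusters that are at least 90% Tom+. Tom+ Dbp forms a U with 28.3 CPM in bin 1 and 15.4 CPM in bin 5, while Hlf is highest pericentrally and Nfil3 in bin 5 in both libraries.

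The other members had position profiles of their own. Tef was periportal in both libraries, with 74.6, 64.96 and 57.3 CPM over the Tom- parts (log2 ratio -0.38, -0.43 to -0.33) and 92.0, 80.2 and 82.9 CPM over the Tom+ parts (log2 ratio -0.15, -0.19 to -0.11). It was higher in Tom+ in 10 of 10 bins, by 0.27 to 0.58 on the log2 scale, and by 0.12 to 0.28 without clusters 6 and 9. Hlf had the opposite slope. It was at 118, 121 and 132 CPM over the Tom- parts (log2 ratio 0.16, 0.13 to 0.20) and at 120, 126 and 142 CPM over the Tom+ parts (log2 ratio 0.24, 0.21 to 0.27). The Tom+ over Tom- interval of Hlf lay above 0 in 4 of 10 bins. Nfil3 was highest mid-lobule. It was at 93.5, 108 and 101 CPM over the Tom- parts and at 86.0, 102 and 93.8 CPM over the Tom+ parts. In both libraries its highest bin was bin 5, with 109 CPM in Tom- and 104 CPM in Tom+, and its lowest bin 1, with 89.8 and 80.1 CPM. Its interval lay below 0 in 9 of 10 bins with all cells and in 1 of 10 without clusters 6 and 9.

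Across hepatocyte clusters, which are described by number, the members separated further. Dbp is among the 10 leading genes of clusters 6, 7 and 9, so these levels are descriptions. Cluster 6 (37 Tom- and 1543 Tom+ cells, mean bin 8.19) was led by H2-Q1, Ces2c, Snhg11, Dbp and Gstm3, and cluster 9 (34 and 517 cells, mean bin 2.70) by Orm3, Chrna4 and Dbp. Dbp was at 43.1 CPM (30.6 to 58.9) in the Tom- cells and 66.1 CPM (64.1 to 68.2) in the Tom+ cells of cluster 6. In cluster 9 it was at 123.3 CPM (100.1 to 150.2) in the Tom- cells and 61.1 CPM (57.8 to 64.6) in the Tom+ cells. In the other 8 clusters it was between 3.99 and 14.8 CPM in Tom- and between 6.61 and 21.6 CPM in Tom+ hepatocytes, so the few Tom- cells of clusters 6 and 9 were well above all other Tom- clusters. Those 71 Tom- cells had tdTomato at 90.6 CPM in cluster 6 and 84.3 CPM in cluster 9, against 72.2 CPM in all Tom- hepatocytes and 774 and 635 CPM in the Tom+ cells of the same clusters. Of the 71 cells, 1 carried a barcode found in both libraries. Unthinned, 40.5% of the Tom- and 52.1% of the Tom+ cells of cluster 6 had a Dbp UMI, and 85.3% and 72.9% of those in cluster 9. These shares are not matched for depth. The median was 19519 UMIs in Tom- and 34773 UMIs in Tom+ cells of cluster 6, and 16804 and 35722 UMIs in those of cluster 9.

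Tef was high in the same places, with Tom- and Tom+ levels of 126 and 125 CPM for cluster 6 and of 180 and 131 CPM for cluster 9. In the other clusters Tom+ Tef was between 58.9 and 112 CPM. Nfil3 had its lowest levels in these clusters, 67.4 CPM in Tom- and 75.4 CPM in Tom+ cells of cluster 6 and 76.7 and 59.4 CPM in those of cluster 9. It was highest in cluster 5, at 146 and 142 CPM, a cluster led by Nr1i3, the nuclear receptor CAR. Hlf varied least, by a factor of 1.21 between its highest and lowest cluster in Tom- and 1.36 in Tom+, against 30.9 and 10.0 for Dbp. Tom+ cells of clusters 6 and 9 had a summed hepatocyte marker level of 142353 CPM, against 167305 CPM in the other Tom+ hepatocytes. Their stellate and fibroblast markers summed to 86.4 CPM, against 72.9 CPM in the other Tom+ hepatocytes, and 3 of 8 of these markers were higher in cluster 6. The part of these in the Dbp differences was not tested. Cluster 7 (88.4% Tom+), where tdTomato and several endothelial genes lead and 4 of 8 endothelial markers were higher, had Dbp at 14.0 CPM in Tom- and 21.6 CPM in Tom+ cells.

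**Figure D2:**
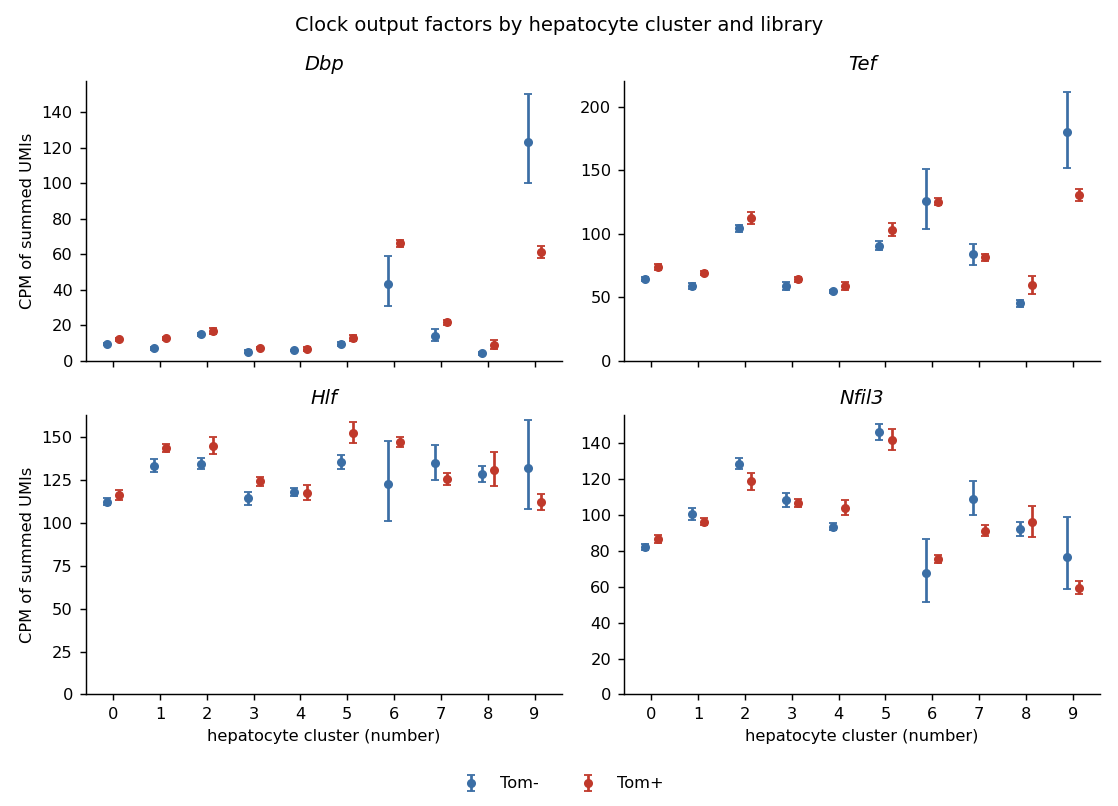
CPM of summed UMIs (vertical axes, from 0) of each member in the 10 hepatocyte clusters (horizontal axis), for Tom- and Tom+ cells, with 95% counting intervals as bars. Dbp and Tef stand high in clusters 6 and 9 while Nfil3 is low there and highest in cluster 5, and Tom- intervals are wide in clusters 6 and 9, which hold 37 and 34 Tom- cells.

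Cells outside the hepatocyte clusters could be described only in part. The clusters 11, 12 and 14 of all cells carried hepatocyte marker UMIs at 12.9% to 18.6% of their totals, against 16.8% in Tom- and 16.2% in Tom+ hepatocytes, and their part in the levels below was not tested. Cluster 12 of all cells, endothelial-like by its leading genes, such as Oit3, and 8 of 8 endothelial markers higher, also had 8 of 8 stellate and fibroblast, 6 of 8 macrophage and 7 of 7 measured cycling markers higher. It held 484 Tom- cells (median 10087 UMIs) and 179 Tom+ cells (median 7824 UMIs). Dbp was at 13.7 CPM (10.9 to 17.1) in its Tom- cells and 27.5 CPM (20.9 to 35.5) in its Tom+ cells. The other members were lower there than in hepatocytes, with Tef at 39.99 and 45.0 CPM, Hlf at 66.9 and 66.3 CPM and Nfil3 at 51.7 and 46.4 CPM. Dbp thus made up 7.97% (6.37 to 9.82) of the members' UMIs in Tom- and 14.8% (11.5 to 18.8) in Tom+ cells of that cluster, against 2.93% (2.84 to 3.03) and 6.73% (6.596 to 6.86) in hepatocytes. In the other left-out clusters of 100 cells or more (0, 5, 6 and 13) it was between 2.31% and 3.83% in Tom- and between 5.83% and 6.403% in Tom+ cells. Cluster 11, unnamed and led by Gpnmb and Lair1, had a Dbp part of 6.74% (5.35 to 8.37) in Tom- and 7.87% (5.63 to 10.6) in Tom+ cells, and the latter interval held the Tom+ hepatocyte value. Cluster 14, unnamed and led by Dmbt1, Mmp7 and Krt19, held 189 Tom- and 75 Tom+ cells. Its parts were 13.6% (10.0 to 18.0) in Tom- and 13.2% (8.23 to 19.6) in Tom+ cells.

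Over single hepatocytes, Dbp varied together with Tef and against Nfil3. The correlation is Pearson's r of residuals from a count model that takes up each cell's total, over 11038 Tom- and 10479 Tom+ cells of 1 library each. It is a description of these cells, and sparse counts pull it towards 0. The value without counting noise given beside it is a separate correlation. It is taken over each gene's share of a cell's UMIs and not over residuals, so it differs from r by more than the noise. Dbp and Tef had r = 0.219 in Tom- hepatocytes (0.558 without counting noise) and r = 0.452 in Tom+ hepatocytes (0.703). The relation was above 0 in all 10 position bins of each library, from 0.121 to 0.387 in Tom- and from 0.235 to 0.559 in Tom+, and in all 8 Tom- and 9 Tom+ clusters of 100 cells or more. Without clusters 6 and 9 it was 0.198 in Tom- and 0.272 in Tom+.

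Dbp and Hlf had r = 0.0532 in Tom- and r = 0.104 in Tom+ hepatocytes (0.198 and 0.260 without counting noise), above 0 in 10 of 10 bins of both libraries, in 6 of 8 Tom- clusters and 9 of 9 Tom+ clusters, and in 8 of 10 Tom+ bins without clusters 6 and 9. These are weak relations. Dbp and Nfil3 had r = -0.0370 in Tom- and r = -0.143 in Tom+ hepatocytes (-0.0715 and -0.263 without counting noise). In Tom+ cells the value was below 0 in all 10 bins, from -0.214 to -0.0685, and in Tom- cells it was above 0 in 2 of 10. By cluster it was above 0 in 1 of 8 in Tom- and in 1 of 9 in Tom+, where cluster 4 (444 cells) had 0.112. Without clusters 6 and 9 the Tom+ value was -0.0824, and 1 of 10 bins was above 0. Among the remaining pairs, Tef and Hlf had r = 0.0868 and 0.110. Tef and Nfil3 were on opposite sides of 0, with r = 0.0610 in Tom- and -0.0679 in Tom+, and the Tom+ value was 0.000927 without clusters 6 and 9. Hlf and Nfil3 had r = 0.0647 and 0.0256.

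Which genes followed Dbp was read over the 7591 genes at 10 CPM or more in both libraries. In Tom- hepatocytes 94 genes (1.24%) had r of 0.1 or more and 29 (0.382%) had r of -0.1 or less. In Tom+ hepatocytes the counts were 467 (6.15%) and 119 (1.57%). Tef was the gene with the highest r in Tom- and ranked second to Per3 in Tom+. Besides Tef, the 10 highest in Tom- were Thrsp (0.187), a lipogenic regulator, Rsrp1 (0.184), Per3 (0.184), Lpin1 (0.171), a phosphatidate phosphatase, Slc7a2 (0.170), Ftcd (0.161), Asl (0.161), a urea cycle enzyme, Nr1d1 (0.154) and Per2 (0.151). Several of these, such as Ftcd and Asl, are enzymes of periportal cells, and 4 of 8 periportal position markers and 0 of 7 pericentral ones had r of 0.1 or more in Tom-. Within position bins the mean r of Ftcd was 0.125 and that of Asl 0.134.

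In Tom+ hepatocytes the 10 highest were Per3 (0.497), Tef (0.452), Txnip (0.307), which binds thioredoxin, Nr1d2 (0.306), which encodes REV-ERB beta, Fmo5 (0.295), Slc12a4 (0.295), Per2 (0.294), Alas1 (0.288), the first enzyme of haem synthesis, Akr1c19 (0.287) and Akr1d1 (0.251), the steroid 5-beta-reductase. Without clusters 6 and 9 these 10 values were lower, with Tef at 0.272, Per3 at 0.265, Nr1d2 at 0.173, Fmo5 at 0.170, Alas1 at 0.164, Per2 at 0.164, Slc12a4 at 0.139 and Txnip at 0.138, and Akr1c19 (0.09996) and Akr1d1 (0.0818) were below the limit of 0.1. With all cells, only Tef, Per3 and Per2 stood among the 10 highest of both libraries. The genes running most against Dbp were abundant secreted proteins and enzymes of hepatocytes. They were Ces1c (-0.145), Ttr (-0.143), Apoa2 (-0.142), Aldh2 (-0.140) and F2 (-0.126) in Tom-. In Tom+ they were Apom (-0.265), Apoa2 (-0.257), Agt (-0.246), Gc (-0.237) and Fga (-0.231).

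The genes at r of 0.1 or more shared between libraries numbered 39, which is 41.5% of the Tom- genes and 8.35% of the Tom+ genes. Without clusters 6 and 9 there were 73 genes in Tom- and 29 in Tom+, of which 10 were shared (13.7% of the Tom- and 34.5% of the Tom+ genes). Those 10 were Tef, the clock repressors Bhlhe40, Nr1d1, Nr1d2, Per1, Per2 and Per3, and Ivns1abp, Mtss1 and L1Md_A, a custom probe for a LINE-1 element. Of the 10, 7 are clock genes or members.

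**Figure D3:**
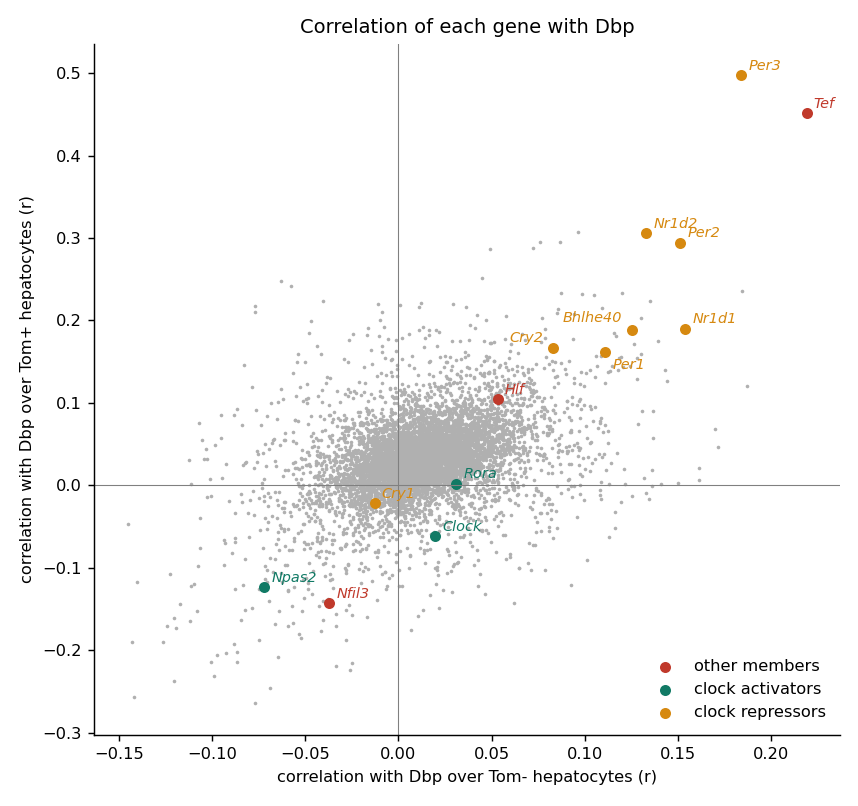
Correlation r of each of 7591 genes with Dbp over Tom- hepatocytes (horizontal axis) and Tom+ hepatocytes (vertical axis), a point per gene, with the other members, clock activators and clock repressors named in colour. Tef (0.219 and 0.452) and Per3 (0.184 and 0.497) lie far out at the upper right, and Nfil3 and Npas2 lie below 0 on both axes.

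Clock repressors followed Dbp as a group. Of the 8 repressors that passed the 10 CPM limit, 6 in Tom- and 7 in Tom+ had r of 0.1 or more, and 7 in Tom+ without clusters 6 and 9. Over all 7591 genes the counts in these sets were 94 (1.24%), 467 (6.15%) and 29. The median r of the repressors was 0.129 in Tom- and 0.190 in Tom+, against 0.0126 and 0.0316 over all genes. Per3 had r = 0.184 and 0.497 (0.681 and 0.720 without counting noise), and its relation was above 0 in 10 of 10 bins of both libraries. Without clusters 6 and 9 its r was 0.148 in Tom- and 0.265 in Tom+. Cry1, a repressor that is known to peak later than the Per genes, had r = -0.0128 in Tom- and -0.0217 in Tom+. Ciart and Bhlhe41 were below the 10 CPM limit and had r = 0.0910 and 0.0799 in Tom- and 0.146 and 0.147 in Tom+.

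The clock activators Npas2, Clock, Rora and Arntl did not share this pattern. Npas2, the paralog of Clock, had r = -0.0719 and -0.124, Clock 0.0197 and -0.0618, Rora 0.0311 and 0.00188, and Arntl, the gene of BMAL1, which was below the limit, -0.00247 and -0.0792. With Nfil3, values for the first and last of these were above 0, at r = 0.0684 and 0.0797 for Npas2 and 0.112 and 0.0783 for Arntl in Tom- and Tom+ hepatocytes. These values are small, and they are given for the direction in which Dbp and Nfil3 parted.

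Among genes reported as targets of these factors in liver, 9 passed the limit. Of these, 0 had r of 0.1 or more with Dbp in Tom-, 5 in Tom+ and 1 in Tom+ without clusters 6 and 9, where 94 (1.24%), 467 (6.15%) and 29 of all 7591 genes did, so the count over all genes moved between these sets as well. The median r of the targets was -0.0268, 0.150 and 0.0595. Alas1 had r = 0.0724 in Tom- and 0.288 in Tom+, and 0.164 in Tom+ without the clusters. The other 4 were Por, the reductase that serves cytochromes P450 (-0.0403 and 0.223), Cyp7a1, the rate-limiting enzyme of bile acid synthesis (-0.00907 and 0.210), Ppara, a nuclear receptor for fatty acids (0.0640 and 0.160), and Nr1i3 (-0.0268 and 0.150). All 5 were higher pericentrally in Tom- hepatocytes, by a log2 ratio of 0.38 for Ppara to 4.75 for Cyp7a1, and their mean r within position bins of Tom- was 0.0513 to 0.138. Between the libraries, 1 of the 9 targets, Cyp7a1, was at least 2-fold higher in Tom+, with 204 CPM in Tom- and 519 CPM in Tom+ (log2 ratio 1.35, and 1.12 without clusters 6 and 9). Within the pericentral part, of which Tom+ has more cells, Cyp7a1 was at 721 and 888 CPM, and within the periportal part at 26.7 and 50.6 CPM. The list's median log2 ratio was 0.13. None of the tested activators (4), repressors (8), other rhythmic genes (5) or related C/EBP factors (4) was past 2-fold in either direction. Of all 7842 tested genes, 21 (0.268%) passed 2-fold towards Tom+ and 2 (0.0255%) towards Tom-. Wee1, a cell cycle kinase on the list of rhythmic genes, was below the limit of 10 CPM, at 2.52 CPM in Tom- and 5.71 CPM in Tom+ (log2 ratio 1.18, 1.07 to 1.29, and 0.74 without clusters 6 and 9). Wee1 was also higher pericentrally, with a log2 ratio of 1.87 in Tom- and 2.02 in Tom+. Its Tom- and Tom+ levels were 1.38 and 2.13 CPM within the periportal part and 2.74 and 3.79 CPM within the middle part. Within the pericentral part they were 5.04 and 8.63 CPM.

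Over the same 9 targets, r with Hlf lay between -0.0169 (Cyp2a4) and 0.148 (Alas1) in Tom- and between -0.0150 (Cyp2a4) and 0.200 (Alas1) in Tom+. With Nfil3 it lay between -0.0591 (Cyp2a4) and 0.191 (Alas1) in Tom- and between -0.0349 (Cyp2a4) and 0.0649 (Cyp4a14) in Tom+. Shares over all genes were not computed for these 2 members. Other rhythmic genes gave 1 of 5 at 0.1 or more with Dbp in Tom- (Lpin1) and 2 of 5 in Tom+ (Usp2 at 0.219 and Nampt at 0.107), and 0 of 5 in Tom+ without clusters 6 and 9. Of 4 C/EBP genes, which encode related bZIP factors, 0 in Tom- and 2 in Tom+ (Cebpa at 0.148 and Cebpg at 0.105) reached it, and 0 without clusters 6 and 9. The shares over all genes were 1.24% in Tom- and 6.15% in Tom+.

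**Figure D4:**
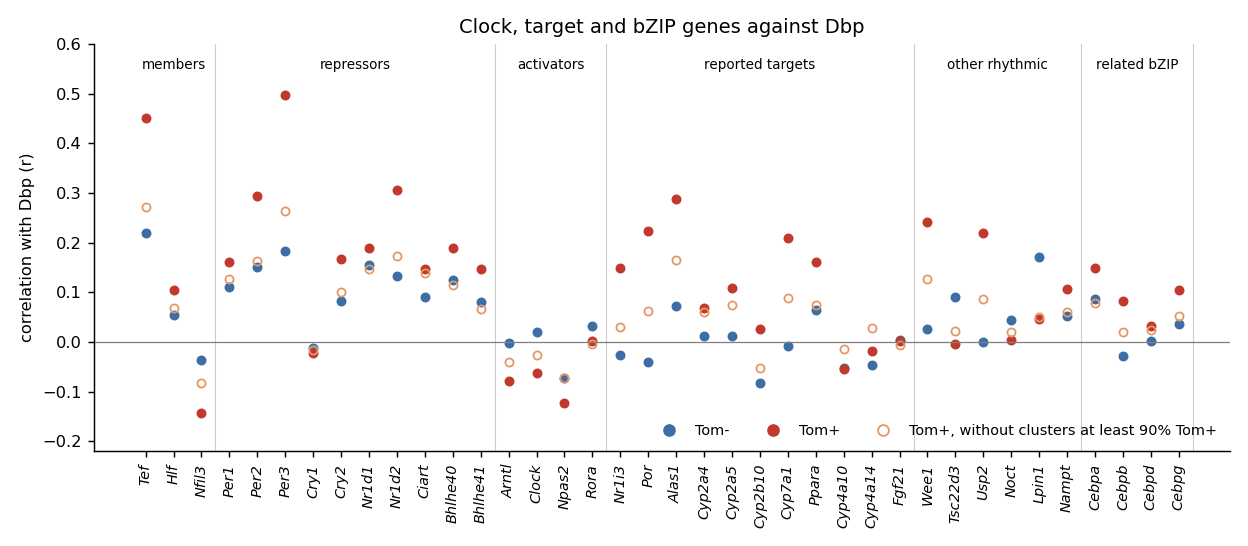
Correlation r with Dbp (vertical axis) of the other members and of listed clock, target, rhythmic and bZIP genes (horizontal axis) over Tom- hepatocytes, Tom+ hepatocytes and Tom+ hepatocytes without the clusters that are at least 90% Tom+ (open circles). Repressors other than Cry1 lie above 0 in all 3 sets, and targets such as Por and Cyp7a1 are above 0.2 only with all Tom+ cells.

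Sorting cells by their own Dbp count gave the same picture in levels. With each hepatocyte thinned to 20000 UMIs, leaving out 2121 Tom- and 2022 Tom+ shallower cells, there were 7731 Tom- cells with 0 Dbp UMIs, 951 with 1, 174 with 2 and 61 with 3 or more. The Tom+ numbers were 6605, 1112, 327 and 413. Cells with 3 or more were 0.684% of the Tom- and 4.88% of the Tom+ hepatocytes that reached 20000 UMIs. The Tom- cells of clusters 6 and 9, where Dbp was high, had medians of 19519 and 16804 UMIs. The Tom+ cells of these clusters had medians of 34773 and 35722 UMIs, so the depth limit left out a larger part of the Tom- ones. Tef was at 66.1, 81.1, 114 and 139 CPM over these classes in Tom- and at 74.1, 100.2, 124 and 192 CPM in Tom+. Each added Dbp UMI thus went with a higher Tef level in both libraries. The log2 ratio of cells with 2 or more Dbp UMIs to cells with 0 was 0.86 (0.74 to 0.98) in Tom-, 1.13 (1.06 to 1.19) in Tom+ and 0.80 in Tom+ without clusters 6 and 9.

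Hlf was at 120, 124, 130 and 131 CPM over the Tom- classes and at 129, 132, 145 and 158 CPM over the Tom+ classes, with log2 ratios of 0.12 (0.00 to 0.24) and 0.24 (0.17 to 0.30). Nfil3 was at 103, 100.2, 81.6 and 76.2 CPM over the Tom- classes and at 100.7, 87.8, 70.8 and 67.8 CPM over the Tom+ classes. Its log2 ratio was -0.36 (-0.51 to -0.22) in Tom-, -0.54 (-0.64 to -0.45) in Tom+ and -0.32 in Tom+ without clusters 6 and 9. Nfil3 was thus lowest in the cells richest in Dbp in both libraries, also where r over all cells was near 0.

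Few other genes moved 2-fold with the Dbp classes. In Tom- hepatocytes 1 gene (0.0132%) was at least 2-fold higher in cells with 2 or more Dbp UMIs, Per3, and 1 gene (0.0132%) at least 2-fold lower, Sod3. In Tom+ hepatocytes 5 genes (0.0659%) were higher, namely Per3, Slc12a4, Per2, Tef and Rsad2, and 6 (0.079%) lower, among them Npas2, Cyp3a44, Lpl, Ndrg1 and Cyp2c69. Of these, Sod3, Rsad2, Cyp3a44, Lpl, Ndrg1 and Cyp2c69 belong to no list here and are named because they are part of the counts. Per3 was at 12.2, 18.7, 25.9 and 46.7 CPM over the Tom- classes and at 15.03, 26.6, 44.6 and 93.8 CPM over the Tom+ classes. Its log2 ratio was 1.35 in Tom- and 2.26 in Tom+. Npas2 was at 14.4, 9.88, 8.33 and 8.20 CPM in Tom- and at 10.7, 8.41, 4.74 and 2.42 CPM in Tom+, the last from 20 UMIs. Its log2 ratio was -0.80 (-1.29 to -0.34) and -1.64 (-2.07 to -1.24).

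**Figure D5:**
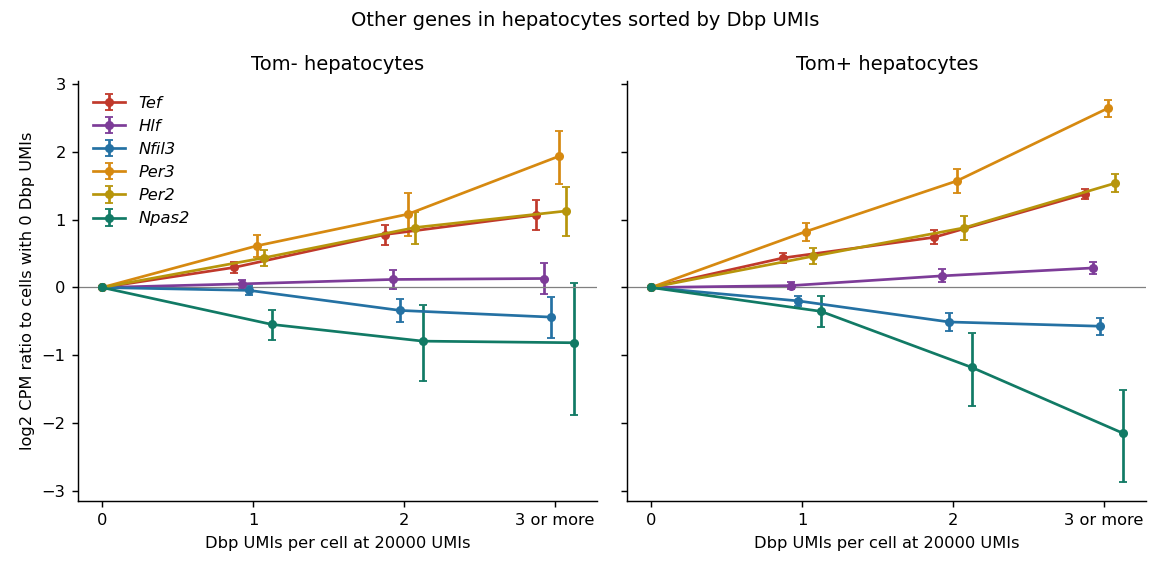
Log2 ratio of CPM to the cells with 0 Dbp UMIs (vertical axes) for Tef, Hlf, Nfil3, Per3, Per2 and Npas2 in hepatocytes with 0, 1, 2 and 3 or more Dbp UMIs at 20000 UMIs per cell (horizontal axes), Tom- left and Tom+ right, with 95% counting intervals as bars. Per3, Per2 and Tef lie above 0 in both libraries and Nfil3 and Npas2 below, with wide bars for the 61 Tom- cells in the highest class.

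Other properties moved with the Dbp classes as well. From 0 to 3 or more Dbp UMIs, the share of cells in clusters 6 and 9 went from 0.207% to 13.1% in Tom- and from 13.04% to 73.8% in Tom+. The summed hepatocyte markers went from 169010 to 146039 CPM and from 164765 to 131489 CPM, endothelial markers from 64.0 to 59.0 and from 49.3 to 58.0 CPM, macrophage markers from 212 to 206 and from 185 to 197 CPM, and stellate and fibroblast markers from 65.8 to 54.9 and from 72.8 to 96.9 CPM. The mean position bin was 4.52 and 3.89 in Tom- and 6.62 and 7.06 in Tom+. tdTomato was at 76.8 and 115 CPM in Tom- and at 867 and 965 CPM in Tom+. The part of these in the Dbp classes was not tested.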

How the data were processed

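The authors hybridised pairs of probes to fixed RNA (10x Genomics Flex, with tdTomato probes added) and counted UMIs with Cell Ranger 7.2.0 on mm10, per the labels. The deposited values are UMI counts of each gene in each cell, without normalization. Cells were kept with 2000 to 10000 genes, at most 100000 UMIs and at most 5% mitochondrial counts. Both libraries were clustered together (scanpy 1.11.5, leidenalg 0.10.2, 2000 variable genes, 30 components, 20 neighbours, resolution 0.8). Clusters were left out where their cells had a median number of genes below 0.75 times the overall median, or where Pecam1, Ptprc or Dcn reached 2.5 times its median over clusters, and the hepatocytes left were clustered again. Scrublet called 1 Tom- and 0 Tom+ doublets and so did not work here, and doublets were not removed.

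Levels are CPM of counts summed over the cells of a library, and their intervals are exact Poisson intervals. Ratios have exact conditional intervals and shares have Clopper-Pearson intervals. Correlations used analytic Pearson residuals (overdispersion 100, numpy 2.4.6, scipy 1.17.1) and were tested on simulated data. Named genes are the 4 members, the 10 genes with the highest and the 5 with the lowest correlation with Dbp in each library, and fixed lists of clock, target, rhythmic and bZIP genes. The members and lists were chosen with earlier results of these data known. Upp2 is not among the features, and Bmal1 is listed as Arntl. Positions come from GENCODE M21 and promoter sequences from RefSeq. Alternatives changed the gene minimum, the clusters kept, doublet scores, shared barcodes, scaling, depth and position score. Some results are not reported here.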

Additional observations from a re-analysis of the deposited data

Results flagged for a closer look

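With all cells at full depth, the position gradient of Dbp had opposite signs in the libraries. The pericentral over periportal log2 ratio was -0.94 (-1.09 to -0.78) in Tom- hepatocytes and 0.20 (0.13 to 0.28) in Tom+ hepatocytes. With 1 library per group the difference was not tested. The Tom+ sign was not steady. It was 0.040 (-0.11 to 0.20) with cells thinned to 10000 UMIs and -0.039 between the outermost bins, and it turned to -0.27 when the clusters of at least 90% Tom+ cells were left out, and Dbp is among the genes that lead those clusters.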

How the results depend on the processing

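No paired analysis was possible because there is 1 library in each group. Of 162 alternative values for 28 results, 110 stayed close to the reported value (within the interval, or for gene counts within 1.5 times), 50 moved further and 2 changed sign. Both sign changes concern the Tom+ gradient of Dbp, which was -0.27 without the clusters of at least 90% Tom+ cells (bins cut again) and -0.039 between the outermost bins of position. For the library ratios (log2, in the order Dbp, Tef, Hlf, Nfil3 where 4 values stand), leaving out those clusters gave 0.51 for Dbp, 0.12 for Tef and -0.0030 for Nfil3, weighting position bins equally gave 1.44, 0.38, 0.055 and -0.11, and thinning to 10000 UMIs gave 1.24, 0.28, 0.16 and -0.15. The mean over cells gave 1.28 for Dbp, 0.26 for Tef and -0.14 for Nfil3. Median-of-ratios scaling, a shift of 0.03, gave 0.27 for Tef, 0.090 for Hlf and -0.11 for Nfil3. With few-gene clusters kept Hlf was at 0.14. For the gradients, the outermost bins gave -0.64 for Tom- Dbp, 0.22 and 0.30 for Tom- and Tom+ Hlf, and 0.053 and 0.075 for Tom- and Tom+ Nfil3. Thinning gave 0.040 for Tom+ Dbp, -0.45 and -0.25 for Tom- and Tom+ Tef and 0.20 for Tom- Hlf. Position from 4 markers gave -0.31 for Tom- Tef and 0.19 for Tom- Nfil3, and leaving out the Tom+ clusters gave -0.27 for Tom+ Tef and 0.17 for Tom+ Hlf. The Tom- correlation of Dbp with Tef was 0.179 with few-gene clusters kept, 0.198 without the Tom+ clusters, 0.182 on log counts, 0.201 within bins and 0.142 at 20000 UMIs, and that with Hlf 0.0249 at 20000 UMIs. In Tom+, leaving out the clusters gave 0.272 for Tef, 0.0678 for Hlf and -0.0824 for Nfil3, log counts gave 0.364 for Tef and 0.0720 for Hlf, and 20000 UMIs gave 0.352, 0.0764 and -0.109 for Tef, Hlf and Nfil3. The genes at r of 0.1 or more with Dbp numbered 51 instead of 94 within bins in Tom- and 29 instead of 467 without the Tom+ clusters in Tom+. An alternative chosen after seeing the data, the Dbp classes in Tom+ without those clusters, gave 0.80 for Tef, -0.32 for Nfil3 and 1.68 for Per3. The cause of the moves and sign changes was not tested. Depth limits what can be read for Dbp in single cells, since most hepatocytes had no Dbp UMI.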
